A study of Danio rerio with 27 samples.

Results

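Collagens are the main structural proteins of the extracellular matrix, and fibrotic mammalian livers accumulate the fibril-forming types I and III. Beside these abundant chains, a liver can express minor collagens that are best known from other tissues. The fibril-forming chain of type II collagen (col2a1b) and the chain of type XXVII collagen (col27a1b) are known mainly from cartilage. Type IX collagen, one chain of which is encoded by col9a2, and type XII collagen (col12a1b) belong to the fibril-associated collagens with interrupted triple helices (FACITs), which attach to the surface of fibrils. Type XII collagen is known from tendon, skin and other dense connective tissue, and type IX collagen decorates type II fibrils in cartilage.

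The 4 minor collagens described here are the genes that the study's list of genes in its self-organizing map pairs with these symbols, and they are 4 of 18336 genes in the expression table. They are col2a1b (ENSDARG00000011407), col9a2 (ENSDARG00000024492), col12a1b (ENSDARG00000019601) and col27a1b (ENSDARG00000099930). All 4 have a value in every library, and the main comparisons removed no gene by a filter. A value does not show that reads were found, and col9a2 was near the bottom of the scale in most libraries. That map was drawn from these same libraries, so each member was on a list of genes chosen from them. It placed col12a1b and col9a2 in its cluster A and col2a1b and col27a1b in its cluster B, and this grouping gives no independent support for a shared response.

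RNA was sequenced from sorted liver cells of adult female zebrafish of the AB background, from 3 reporter lines. The line Tg(fabp10a:dsRed) labels hepatocytes (HEPs), Tg(hand2:EGFP) labels hepatic stellate cells (HSCs), the perivascular cells that make matrix after injury, and Tg(kdrl:ras-mCherry) labels endothelial cells (ECs). In each line the reporter is driven by the promoter of the gene in its name, so a sorted population holds whatever cells expressed that reporter. Fish were given thioacetamide (TAA), a hepatotoxin, at 500 mg/kg, or a control injection that the labels name as sterile water, 6 times in 2 weeks. Each of 9 groups holds 3 libraries. They are the reporter-positive cells of control fish and of TAA fish, and the reporter-negative cells of control fish, in each line. Reporter-negative cells of TAA fish are not analysed here. The methods count fewer control fish than there are control libraries, so libraries may share fish, and p-values then measure the spread between libraries only.

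The values are regularized-log (rlog) values on the log2 scale, which the authors computed with DESeq2, and differences between them are log2 differences. The rlog shrinks the values of genes with few reads, so a difference of a low gene is understated. Depth per library is not known from this table. A gene was called higher or lower where its adjusted p was under 0.05 (limma across all 18336 genes, Benjamini-Hochberg adjustment). For the TAA comparisons, standard errors and intervals were pooled over all reporter-positive libraries. A gene's standard error is therefore the same in ECs, HEPs and HSCs, whatever the spread within the groups compared. Over 3 against 3 libraries the two-sided exact permutation test cannot go below p = 0.10, so it cannot reach that threshold for a single gene.

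The libraries labelled EC TAA went against their label. The 19 endothelial markers had a mean rlog level of 0.70 to 1.05 in these 3 libraries and of 7.92 to 8.29 in the EC control libraries, and all 19 were called lower. The level of kdrl, the vascular endothelial growth factor receptor gene whose promoter drives the EC reporter, was 2.05 to 2.64 against 12.51 to 12.78. The 18 hepatocyte markers were at 14.00 to 14.28 against 9.29 to 10.40, all 18 called higher, and the 16 leukocyte markers were at 1.25 to 1.55 against 7.56 to 7.78, all 16 called lower. Every EC TAA value below therefore comes from libraries in which endothelial markers were near the bottom of the scale and hepatocyte markers were high, and each EC comparison moves with these lists. Their part in the members' differences was not tested.

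**Figure D1:**
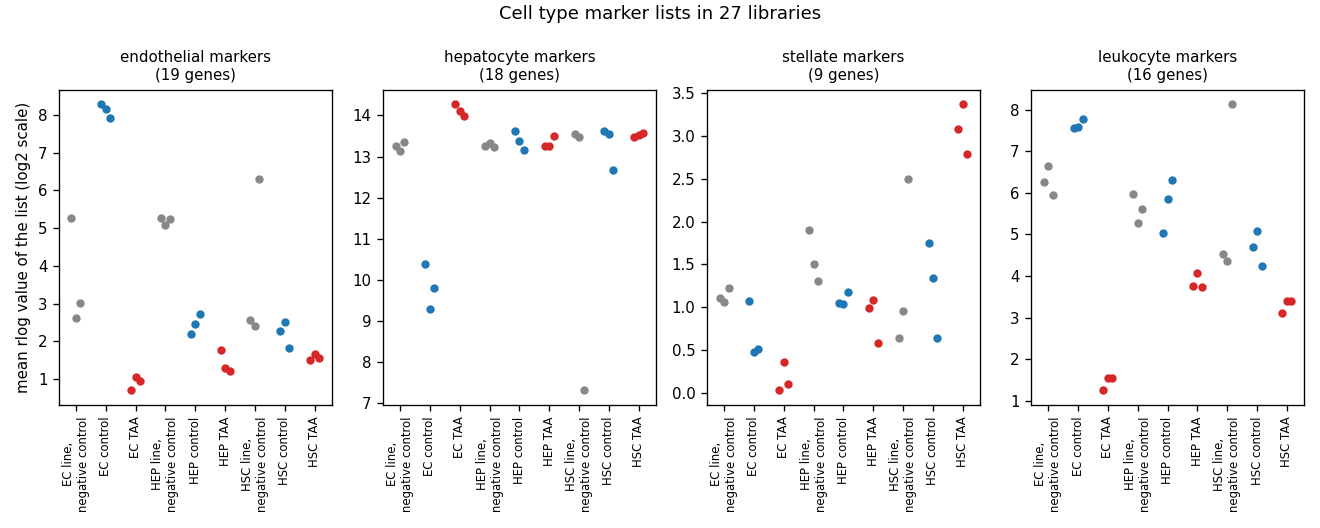
Mean rlog value (log2 scale) of 4 lists of cell type markers in each of the 27 libraries, with 3 points for each of the 9 groups (grey, reporter-negative control; blue, reporter-positive control; red, reporter-positive TAA). The libraries labelled EC TAA have endothelial markers at 0.70 to 1.05 and hepatocyte markers at 14.00 to 14.28, and the HSC TAA libraries have stellate markers at 2.78 to 3.37.

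The HSC label was checked in the same way. Hepatocyte markers were at 12.67 to 13.63 in HSC control libraries and at 13.17 to 13.62 in HEP control libraries. The 9 stellate markers were at 0.64 to 1.74 in EGFP-positive and at 0.64 to 2.49 in EGFP-negative control libraries, so these ranges overlapped. They were at 2.78 to 3.37 in the HSC TAA libraries, and 6 of the 9 were called higher than in HSC control libraries. EGFP-negative control replicate 3 stood apart from the other 2 libraries of its group, with hepatocyte markers at 7.31. The level of hand2 was -0.13 to 1.39 in EGFP-positive and -0.57 to 0.78 in EGFP-negative control libraries, so it overlapped as well. No gene was called between these groups. Stellate markers thus did not set the HSC control libraries apart from EGFP-negative cells, and HSC below names the label.

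Of the members, col12a1b rose in HSCs and fell in HEPs under TAA, col9a2 rose in HSCs, and col2a1b and col27a1b rose in the libraries labelled EC TAA. All members were on a list chosen from these same libraries, so their shares are no test against those of unselected genes. In HSCs 2 of 4 members were called higher, where 4.26% of all genes were. In HEPs 1 of 4 was called lower, where 5.27% of all genes were, and none was called higher, where 2.13% were. In ECs 2 of 4 were called higher, where 19.7% of all genes were higher and 31.5% lower, and 51.2% were called in either direction. A share of 2 in 4 is close to that last background. In the EC comparison 3611 genes were called higher and 5776 lower as deposited, and 5833 and 3756 once the medians of the libraries were set equal. The median of all genes in that comparison moved from -0.25 to 0.32, and col2a1b and col27a1b stayed called higher.

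**Figure D2:**
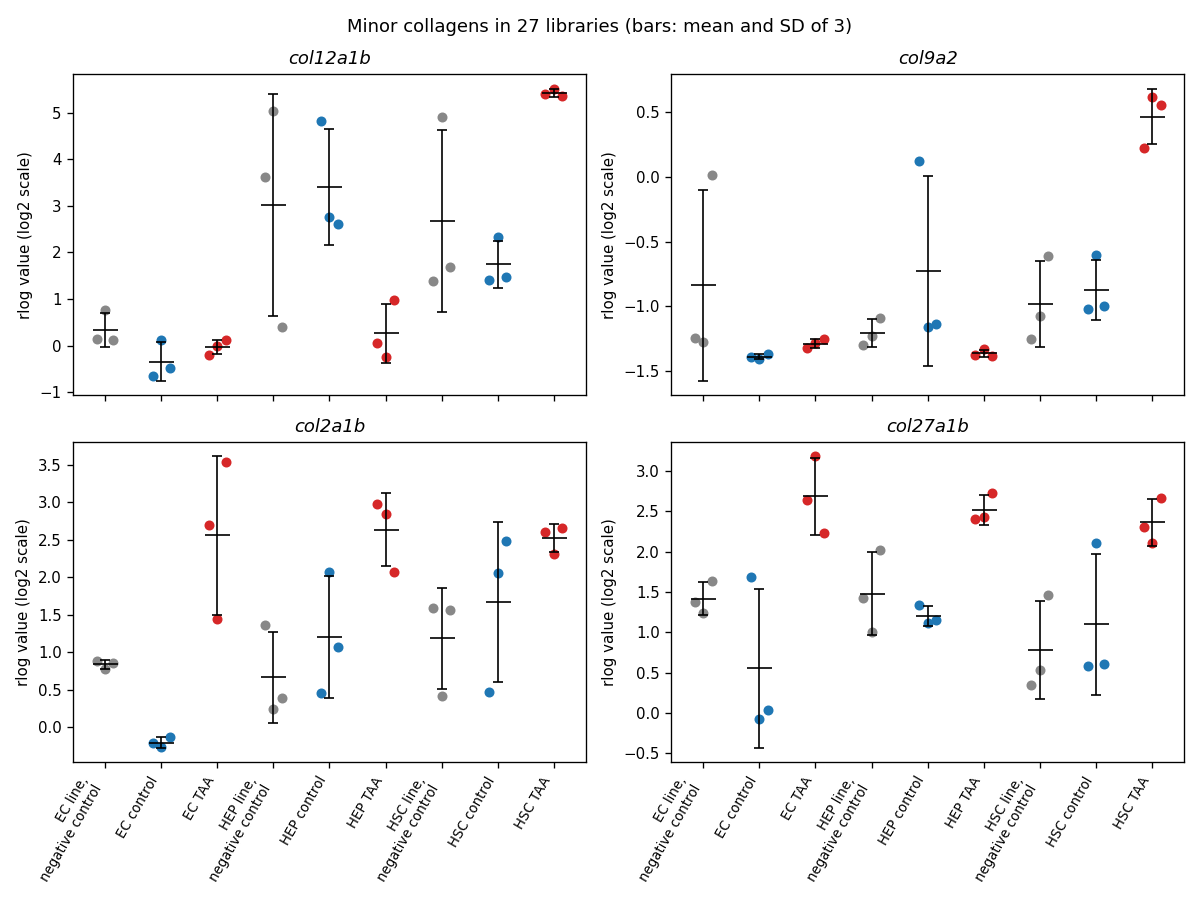
The rlog value (log2 scale) of each of the 4 minor collagens in 27 libraries, with 3 points per group and bars for the mean and SD. For col12a1b the 3 HSC TAA libraries lie between 5.35 and 5.51, and for col2a1b and col27a1b the TAA groups have the 3 highest means.

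The FACIT gene col12a1b had the widest range of the members. In the HSC control libraries its rlog level was 1.42, 2.33 and 1.48, and in the HSC TAA libraries it was 5.41, 5.51 and 5.35. Every TAA library was above every control library, as for 12.7% of all genes in this direction, and the TAA libraries were close to each other. The log2 difference was 3.68 (standard error 0.52, 95% interval 2.6 to 4.76, n = 3 per group, limma adjusted p = 0.000239, exact permutation p = 0.10). Leaving out each library in turn kept this call in 6 of 6 fits, with differences of 3.51 to 3.97. A fit with no EC TAA library gave an adjusted p of 0.000747.

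In HEPs the direction of col12a1b was the opposite. Its level was 4.83, 2.75 and 2.62 in HEP control libraries and 0.058, -0.24 and 0.98 in HEP TAA libraries. The groups did not overlap, as for 17.9% of all genes in this direction, and control replicate 1 was the highest. The log2 difference was -3.14 (standard error 0.52, 95% interval -4.22 to -2.05, n = 3 per group, limma adjusted p = 0.00108, exact permutation p = 0.10). The call held in 6 of 6 fits that left out a library, where the difference ranged from -3.53 to -2.42, and with no EC TAA library (adjusted p = 0.00249). It was lost in a fit of all 27 libraries, reporter-negative ones included (adjusted p = 0.0552), where the call of col12a1b in HSCs held (adjusted p = 0.0177). Leukocyte markers were at 3.74 to 4.07 in HEP TAA and at 5.04 to 6.31 in HEP control libraries, with 14 of 16 called lower, and endothelial markers at 1.22 to 1.77 and 2.19 to 2.73, with 5 of 19 called lower. Stellate markers, to 1 decimal, were at 0.6 to 1.1 and 1.0 to 1.2, with hand2 the 1 of 9 called, higher, and no hepatocyte or cholangiocyte marker was called. The part of these lists in the fall of col12a1b was not tested.

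In ECs col12a1b was low with and without TAA. The EC control libraries were at -0.66, 0.12 and -0.49, and the libraries labelled EC TAA were at -0.19, 0.0017 and 0.12. The groups overlapped, and the log2 difference was 0.32 (standard error 0.52, 95% interval -0.76 to 1.40, n = 3 per group, limma adjusted p = 0.646, exact permutation p = 0.40).

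The TAA responses of col12a1b were compared between cell types as interactions. The change in HSCs exceeded the change in HEPs by 6.81 (standard error 0.73, adjusted p = 2.1e-05), where 2.86% of all genes were called. The change in ECs exceeded that in HEPs by 3.45 (standard error 0.73, adjusted p = 0.000818) and differed from that in HSCs by -3.36 (standard error 0.73, adjusted p = 0.000948), in comparisons where 40.9% and 43.1% of all genes were called. These 3 differences were past the threshold in each alternative run, including each fit that left out a library. Both EC differences rest on the libraries labelled EC TAA, which went against their label. They cannot be read as a response of endothelial cells. The interactions share the same control and TAA libraries and are not independent of the changes above.

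The other FACIT member, col9a2, was near the bottom of the scale in most libraries. The HSC control libraries were at -1.02, -0.61 and -0.99 and the HSC TAA libraries at 0.22, 0.62 and 0.56. Every TAA library was above every control library, as for 12.7% of all genes in this direction. The highest control, replicate 2, came from the library with the highest 5th percentile of all genes (-0.36, against -0.73 and -0.71 in the other 2). The log2 difference was 1.34 (standard error 0.26, 95% interval 0.79 to 1.89, n = 3 per group, limma adjusted p = 0.00374, exact permutation p = 0.10). Leaving out each library in turn kept the call in 6 of 6 fits, with differences of 1.27 to 1.48, and so did a fit with no EC TAA library (adjusted p = 0.00807).

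In HEPs col9a2 was at 0.12, -1.16 and -1.14 in control libraries and at -1.38, -1.33 and -1.38 in TAA libraries. Control replicate 1 alone was above 0, and the other 2 control libraries were slightly above the TAA libraries. The groups did not overlap, as for 17.9% of all genes in this direction. The log2 difference of -0.64 was not called (standard error 0.26, 95% interval -1.19 to -0.089, n = 3 per group, limma adjusted p = 0.155, exact permutation p = 0.10). Without control replicate 1 it was -0.22. This replicate was also the highest HEP control library for col12a1b.

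The EC control libraries had col9a2 at -1.39, -1.41 and -1.37, and the libraries labelled EC TAA at -1.33, -1.29 and -1.26. Both groups were below the 5th percentile of all genes in their libraries, which was -0.92 to -0.84 in EC control and -1.02 to -0.96 in EC TAA libraries. Although the groups did not overlap, as for 62.0% of all genes, the log2 difference was 0.10 (standard error 0.26, 95% interval -0.45 to 0.65, n = 3 per group, limma adjusted p = 0.774, exact permutation p = 0.10). A change of col9a2 in ECs was not detectable at this level.

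The TAA change of col9a2 in HSCs exceeded that in HEPs by 1.98 (standard error 0.37, adjusted p = 0.0045). The change in ECs differed from that in HSCs by -1.24 (standard error 0.37, adjusted p = 0.0109), but with libraries centred on their median this was -0.59 and no longer called (adjusted p = 0.271). The change in ECs and that in HEPs differed by 0.74 (95% interval -0.035 to 1.52, adjusted p = 0.12). With libraries centred on their median this was 1.30 and called (adjusted p = 0.0179). Neither EC difference of col9a2 can be read as an endothelial response, since both rest on the libraries labelled EC TAA.

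The stellate markers moved with both FACIT members in HSCs. Of the 9 markers, 6 were called higher in HSC TAA libraries, among them postnb (periostin), by 4.71, dcn (decorin), by 2.29, pdgfrb (a receptor for platelet-derived growth factor), by 2.12, and hand2, the gene whose promoter drives the HSC reporter, by 1.75. Leukocyte markers were at 3.11 to 3.4 in HSC TAA and 4.23 to 5.08 in HSC control libraries, with 8 of 16 called lower, and of 10 cholangiocyte markers 2 were called higher and 1 lower. In bulk samples, more cells of a type and more RNA per cell cannot be told apart. The part of the share of stellate cells in the rise of col12a1b and col9a2 was not tested.

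The cartilage-type fibrillar member col2a1b had TAA groups as its 3 highest. In ECs its rlog level was -0.21, -0.27 and -0.13 in control libraries and 2.69, 1.44 and 3.54 in the libraries labelled EC TAA. All 3 TAA libraries were higher, and they varied more than the controls. In the EC comparison 62.0% of all genes had no overlap, in either direction. The log2 difference was 2.76 (standard error 0.57, 95% interval 1.58 to 3.95, n = 3 per group, limma adjusted p = 0.000365, exact permutation p = 0.10), and it stayed called in 6 of 6 fits that left out a library (2.27 to 3.32).

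The HEP control libraries had col2a1b at 0.46, 2.07 and 1.08 and the HEP TAA libraries at 2.98, 2.85 and 2.08. The lowest TAA library was just above the highest control library, and 12.8% of all genes had no overlap in this direction. The log2 difference of 1.43 was not called (standard error 0.57, 95% interval 0.24 to 2.62, n = 3 per group, limma adjusted p = 0.141, exact permutation p = 0.10).

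In HSCs col2a1b was at 0.47, 2.06 and 2.49 in control libraries and at 2.61, 2.32 and 2.66 in TAA libraries. The groups overlapped, with control replicate 3 above TAA replicate 2, and the controls ranged widely. The log2 difference was 0.86 (standard error 0.57, 95% interval -0.33 to 2.04, n = 3 per group, limma adjusted p = 0.369, exact permutation p = 0.20).

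The second fibrillar member, col27a1b, had a similar layout. The EC control libraries were at 1.68, -0.074 and 0.041 and the libraries labelled EC TAA at 2.64, 3.18 and 2.23. Control replicate 1 was well above the other 2, and all TAA libraries were above it, where 62.0% of all genes had no overlap in either direction. The log2 difference was 2.13 (standard error 0.50, 95% interval 1.09 to 3.17, n = 3 per group, limma adjusted p = 0.00118, exact permutation p = 0.10) and stayed called in 6 of 6 fits that left out a library (1.82 to 2.70).

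In HEPs col27a1b was at 1.34, 1.12 and 1.15 in control libraries and at 2.40, 2.43 and 2.73 in TAA libraries. Both groups were tight, and they did not overlap, as for 12.8% of all genes in this direction. The log2 difference of 1.31 was not called (standard error 0.50, 95% interval 0.28 to 2.35, n = 3 per group, limma adjusted p = 0.122, exact permutation p = 0.10). This standard error is pooled over all reporter-positive libraries and is not the spread of the HEP groups. The SD was 0.12 in HEP control and 0.18 in HEP TAA libraries. It was 0.98 in EC control, 0.48 in EC TAA, 0.87 in HSC control and 0.29 in HSC TAA libraries. None of 9 alternatives called this difference, a fit of the HEP libraries alone included (limma adjusted p of 0.0932 to 0.168).

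In HSCs col27a1b was at 0.58, 2.11 and 0.61 in control libraries and at 2.31, 2.1 and 2.67 in TAA libraries. Control replicate 2 was at the level of the lowest TAA library, and the other 2 controls were far below. The log2 difference of 1.26 was not called (standard error 0.50, 95% interval 0.22 to 2.3, n = 3 per group, limma adjusted p = 0.127, exact permutation p = 0.20). Without control replicate 2 it was 1.77 and called (adjusted p = 0.0351).

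**Figure D3:**
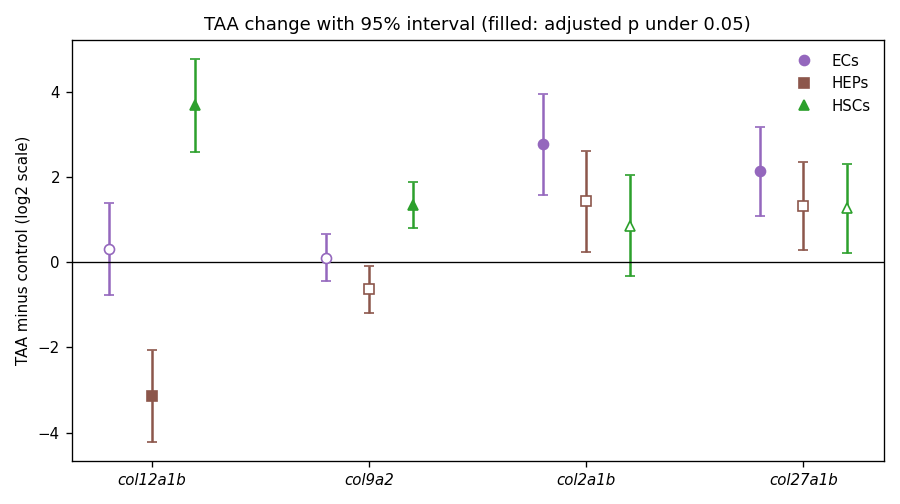
TAA minus control difference (log2 scale) of each member in ECs, HEPs and HSCs with its 95% interval from limma, where a filled symbol marks an adjusted p under 0.05. The HSC and HEP intervals of col12a1b lie on opposite sides of 0 (2.6 to 4.76 and -4.22 to -2.05), and all 3 estimates of col2a1b and of col27a1b are above 0.

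For col2a1b and col27a1b no interaction between cell types was called. The largest was the difference of the col2a1b change between ECs and HSCs, 1.91 (95% interval 0.23 to 3.58, adjusted p = 0.0622), which passed the threshold with libraries centred on their median (2.55, adjusted p = 0.0155) and with quantile normalization (2.48, adjusted p = 0.015), and also without EC TAA replicate 2 (2.47, adjusted p = 0.0176) or HSC control replicate 1 (2.51, adjusted p = 0.0126). For col27a1b the change in HSCs and that in HEPs differed by -0.051 (95% interval -1.52 to 1.42, adjusted p = 0.983). These intervals leave room for differences of over 1 in either direction for col27a1b. Interactions with ECs again rest on the libraries labelled EC TAA, which went against their label.

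The mean TAA change over the 3 cell types, a contrast added after the data were seen, was 1.68 for col2a1b (standard error 0.33, adjusted p = 0.000313) and 1.57 for col27a1b (standard error 0.29, adjusted p = 0.000162). In that contrast 15.7% of all genes were called higher. It was 0.29 for col12a1b (adjusted p = 0.483) and 0.27 for col9a2 (adjusted p = 0.171), and col9a2 was called with libraries centred on their median, with quantile normalization and without HEP control replicate 1 (0.44, 0.48 and 0.41, adjusted p = 0.0427, 0.0274 and 0.0048). Over HEPs and HSCs alone, without the libraries labelled EC TAA, it was 1.14 for col2a1b (standard error 0.40, adjusted p = 0.0645) and 1.29 for col27a1b (standard error 0.35, adjusted p = 0.0199), where 5.13% of all genes were called higher. The call of col27a1b was lost without HSC TAA replicate 3 (1.21, adjusted p = 0.0511), and col2a1b was called without HEP control replicate 2 (1.36, adjusted p = 0.0361) or HSC control replicate 3 (1.35, adjusted p = 0.0351). For col9a2 it was 0.35 (adjusted p = 0.217), called with quantile normalization (0.66, adjusted p = 0.038) and without HEP control replicate 1 (0.56, adjusted p = 0.0101).

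Without TAA, ECs had the lowest mean of each member among the 3 reporter-positive control groups. Against HEPs, 1 of 4 members was called lower in ECs, where 17.1% of all genes were, and against HSCs 2 of 4 were, where 18.4% were. With libraries centred on their median 3 of 4 were called lower in each. This centring moved the median of all genes from 0.27 to -0.13 against HEPs and from 0.23 to -0.31 against HSCs. The share of all genes called lower after it is not given here, so 3 of 4 cannot be set against the shares above. For col12a1b the difference was -3.74 from HEPs (standard error 0.61, adjusted p = 0.000298) and -2.09 from HSCs (standard error 0.61, adjusted p = 0.0133). For col2a1b it was -1.41 from HEPs (standard error 0.56, adjusted p = 0.0586), called in 5 of the 7 alternatives that kept all libraries of both groups or without HEP control replicate 1 (adjusted p of 0.0212 to 0.0486), and -1.87 from HSCs (standard error 0.56, adjusted p = 0.015). For col9a2 it was -0.67 from HEPs (adjusted p = 0.0991) and -0.52 from HSCs (adjusted p = 0.19), and -1.06 and -1.06 with libraries centred on their median (adjusted p = 0.0245 and 0.0214). The differences from HSCs were not called without HSC control replicate 2 (col12a1b -1.79, adjusted p = 0.0552, and col2a1b -1.68, adjusted p = 0.0555), the one for col12a1b also not without EC control replicate 1 (-1.93, adjusted p = 0.0508) or in a fit of all 27 libraries (adjusted p = 0.0506), and the one for col2a1b also not without HSC control replicate 3 (-1.47, adjusted p = 0.0618).

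Between HSC and HEP control libraries no member was called, where 2.62% of all genes were. The level of col12a1b was 1.75 ± 0.51 (SD, n = 3) in HSCs and 3.4 ± 1.24 (SD, n = 3) in HEPs, a difference of -1.65 (95% interval -2.98 to -0.33, adjusted p = 0.176) although the libraries did not overlap, as for 9.9% of all genes in this direction. Compared with the mean of the other 2 cell types, col12a1b was higher in HEP control libraries by 2.70 (standard error 0.53, adjusted p = 0.00337), where 9.98% of all genes were called higher.

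Reporter-negative control cells of each line were set beside the positive cells. In the HEP line hepatocyte markers were at 13.24 to 13.34 in dsRed-negative and 13.17 to 13.62 in dsRed-positive control libraries. The level of fabp10a was 13.43 to 13.91 and 13.58 to 14.12. These ranges overlapped, so dsRed-negative cells were no hepatocyte-free background, and HEP names the label. Endothelial markers were at 5.09 to 5.26 in dsRed-negative and 2.19 to 2.73 in dsRed-positive control libraries. No member was called between reporter-positive and reporter-negative control cells in any line, where 29.3% of all genes were called in the EC line, 0.534% in the HEP line and 0% in the HSC line. In the HSC line 1954 genes, none of them a member, had an unadjusted p under 0.05 in limma. The reporter-negative libraries of the HEP line had col12a1b at 3.62, 5.04 and 0.40, and those of the HSC line at 1.39, 4.91 and 1.70. A level of col12a1b close to that of HSC TAA cells was thus present in 1 negative control library of each of these lines, and the spread of col12a1b was widest there (SD 2.38 and 1.95, n = 3). In the EC line the negative libraries had it at 0.14, 0.77 and 0.11.

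For col9a2 the EC line negative libraries were at -1.25, -1.28 and 0.016, so replicate 3 alone was near the HSC TAA level. The negative libraries of the HEP line were at -1.30 to -1.09 and those of the HSC line at -1.26 to -0.61. The negative libraries of the EC line had col2a1b at 0.77 to 0.88, above all 3 positive libraries (-0.27 to -0.13), but the difference of -1.04 was not called in the fit of all control libraries (95% interval -2.18 to 0.097, adjusted p = 0.164), and 25.7% of all genes were without overlap in this direction. A fit of those 6 libraries alone called it (adjusted p = 0.0129). Over the negative libraries of the other 2 lines col2a1b ranged from 0.24 to 1.59, and col27a1b ranged from 0.34 to 2.02 over the negative libraries of all 3 lines.

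The order of the 9 group means was read from a limma fit of all 27 libraries. For col12a1b the HSC TAA mean of 5.42 ± 0.078 (SD, n = 3) came first and the HEP control mean of 3.4 ± 1.24 second, and these neighbours did not differ past the threshold (difference 2.02, adjusted p = 0.19). HSC TAA was also above the HSC control group (adjusted p = 0.0177) and the 4 groups with lower means than that, but it was not past the threshold against the HEP and HSC line negative groups (adjusted p = 0.0792 and 0.0556). For col9a2 the HSC TAA mean of 0.47 ± 0.21 (SD, n = 3) was above its neighbour, the HEP control mean of -0.73 ± 0.73 (adjusted p = 0.0229), and above each of the other 7 groups. The neighbours below it did not differ past the threshold.

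For col2a1b the first 3 groups were HEP TAA at 2.63 ± 0.49, EC TAA at 2.56 ± 1.06 and HSC TAA at 2.53 ± 0.19 (SD, n = 3 each), which did not differ past the threshold. The lowest was EC control at -0.20 ± 0.069. No neighbouring pair differed past the threshold, and HEP TAA was above the lowest 3 groups. For col27a1b the first 3 groups were EC TAA at 2.68 ± 0.48, HEP TAA at 2.52 ± 0.18 and HSC TAA at 2.36 ± 0.29 (SD, n = 3 each), and EC control was lowest at 0.55 ± 0.98. Again no neighbouring pair differed past the threshold, and EC TAA was above the lowest 3 groups. Even the highest group means of these genes were below the medians of all genes in the same libraries. Those medians were 3.57 to 3.64 in HEP TAA libraries, highest for col2a1b, and 3.39 to 3.51 in EC TAA libraries, highest for col27a1b.

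The libraries labelled EC TAA were also set beside the HEP libraries, since hepatocyte markers were high in both. Against HEP control libraries the difference for col2a1b was 1.36 (adjusted p = 0.154), for col27a1b 1.48 (adjusted p = 0.0681) and for col12a1b -3.42 (adjusted p = 0.016) in the limma fit of all 27 libraries. Against EC control libraries the col2a1b and col27a1b differences were 2.76 and 2.13. Against HEP TAA libraries no member was called, with differences of -0.073 for col2a1b (standard error 0.55), -0.29 for col12a1b (0.87), 0.075 for col9a2 (0.31) and 0.17 for col27a1b (0.48), each with an adjusted p of 0.994. The share of all genes called against HEP control or HEP TAA libraries is not given here, so these calls show nothing particular to the members.

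Over the 27 libraries, col12a1b and col9a2 had a Pearson correlation of 0.65, and col2a1b and col27a1b one of 0.62. The other 4 pairs of members lay between -0.024 and 0.24. These are descriptions, since the libraries share lines, treatment and possibly fish. Each of the pairs named first was placed in a shared cluster by the map, which was drawn from these same libraries. Their higher correlations are therefore not an independent result. The genes most like col12a1b were SFRP1 (a secreted Wnt antagonist, r = 0.81), DPEP1 (a dipeptidase, 0.77), myof (myoferlin, 0.77), syne2a (a nuclear envelope protein, 0.76) and postnb (periostin, a matrix protein, 0.75). For col9a2 they were lrp2b (an endocytic receptor, 0.80), zgc:77784 (0.78), crb2b (a cell polarity protein, 0.77), SFRP1 (0.76) and bnc1 (a zinc finger protein, 0.76). SFRP1 was the 1 gene shared by the 2 sets of 5, 1 of 5 in each.

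The genes most like col2a1b were IDH1 (isocitrate dehydrogenase, r = 0.85), chd4b (a chromatin remodeller, 0.84), gk5 (a glycerol kinase family gene, 0.83), NRIP1 (a nuclear receptor cofactor, 0.83) and HADHA (a fatty acid oxidation enzyme, 0.82). For col27a1b they were si:dkey-114c15.7 (0.84), RALGAPA2 (a GTPase activator, 0.82), cry3a (a cryptochrome, 0.81), trim107 (0.80) and pmp22a (a peripheral myelin protein, 0.80). Capitals are the reference's spelling of zebrafish genes without a zebrafish symbol there. With Spearman's coefficient 1 to 4 of the 5 genes per member were the same, and with the 18 reporter-positive libraries alone 1 to 2.

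The members were set among the other collagens. Of 59 collagen chains listed, 42 were matched to an identifier, and 26 of these were found in the table. Listed chains without an identifier could not be looked for. In HSCs 13 of the 26 were called higher and 0 lower, where 4.26% of all genes were called higher. The median log2 difference of the 26 was 1.62 against -0.063 for all genes. Identifiers came first from the study's map list, which was drawn from these same libraries. Listed chains could enter through it, so these counts are no test against unselected genes. The 22 that are not members gave 11 higher and 0 lower in HSCs. Among them were the type I chains col1a2 (4.38, adjusted p = 0.000243), col1a1b (4.07, adjusted p = 0.000596) and col1a1a (3.31, adjusted p = 0.00409), which form the main fibrils of scar tissue. The type VI chains col6a2 (4.04), col6a4a (3.13), col6a3 (3.09) and col6a1 (2.86), which form beaded microfibrils, rose as well, and so did the fibrillar chains col5a2a (2.36), col5a1 (2.02) and col11a1b (1.33) and the basement membrane chain col4a5 (2.1). By size of change col12a1b came after col1a2, col1a1b and col6a2 among the 26 in HSCs. The counts were the same with libraries centred on their median and with quantile normalization, and 14 of 26 with no EC TAA library in the fit.

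**Figure D4:**
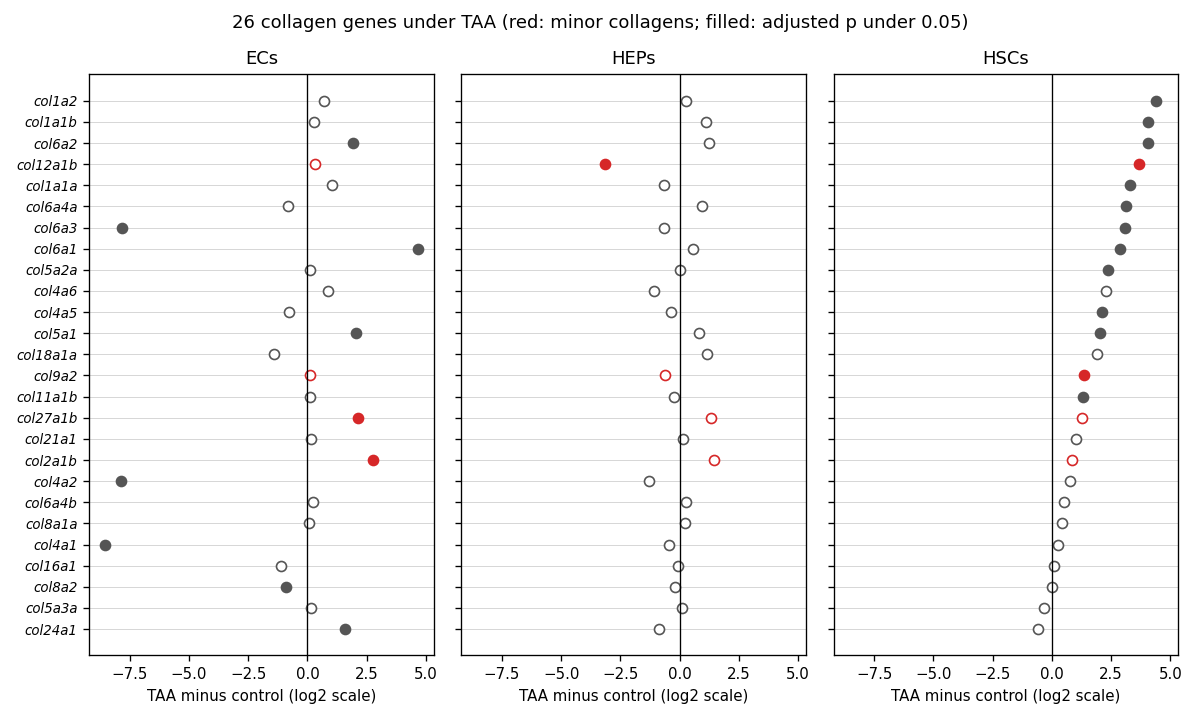
TAA minus control difference (log2 scale) of 26 collagen genes in ECs, HEPs and HSCs, ordered by the HSC difference, with the 4 minor collagens in red and filled symbols for an adjusted p under 0.05. In HSCs 13 genes are filled, all above 0, in HEPs only col12a1b is, at -3.14, and in ECs 6 are filled above 0 and 4 below.

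In HEPs col12a1b was the 1 gene of the 26 that was called, where 7.4% of all genes were called and 5.27% were lower. A share of 1 in 26 is not above that of all genes. The median of the 22 others was 0.050 against -0.018 for all genes. Of all 31 genes in the table that the names used here give as collagen chains, col28a2b was also lower in HEPs (-1.16, adjusted p = 0.0362), but not past the threshold with quantile normalization (-0.99, adjusted p = 0.0926). In the EC comparison 6 of 26 were called higher and 4 lower, where 19.7% of all genes were called higher and 31.5% lower. The share called higher was thus near that of all genes. Beside col2a1b and col27a1b, col6a1 (4.67), col5a1 (2.06), col6a2 (1.93) and col24a1 (1.57) were higher. The basement membrane chains col4a1 (-8.55) and col4a2 (-7.87), and col6a3 (-7.82) and col8a2 (-0.90), were lower. With libraries centred on their median 8 were higher and 3 lower, where 5833 and 3756 of all 18336 genes were.

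The other listed FACIT genes found in the table were col16a1 and col21a1. In HSCs col21a1 had a difference of 1.01 (adjusted p = 0.138) and col16a1 of 0.073 (adjusted p = 0.954), and neither was called in HEPs or ECs. A further gene that the reference names COL12A1 (ENSDARG00000078322), apart from col12a1b, was at 4.55, 4.60 and 2.44 in HSC control and at 6.61, 6.25 and 5.83 in HSC TAA libraries. It was higher in every HSC TAA library, as for 12.7% of all genes in this direction, by 2.37 (standard error 0.63, adjusted p = 0.0253). In HEPs its difference was -0.67 (standard error 0.63, adjusted p = 0.579), where col12a1b was called lower, and in ECs it was -1.19 (standard error 0.63, adjusted p = 0.128). How reads shared by the 2 genes were counted is not given in the sources used here. This further COL12A1 gene matched no listed symbol, so the FACIT list and the 26 listed collagens leave it out.

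Of 25 listed cartilage matrix genes, 14 were matched to an identifier, and 7 of these were found in the table, members col2a1b and col9a2 included. Apart from these, col11a1b, which joins type II collagen in cartilage fibrils, rose in HSCs (1.33, adjusted p = 0.000436). The cartilage transcription factor genes sox6 (2.98) and sox5 (1.66) were higher in the EC comparison, and sox5 was higher in HEPs (1.1, adjusted p = 0.0121). The aggrecan gene acana (-4.95) and the matrilin gene matn1 (-1.31) were lower in the EC comparison. With libraries centred on their median matn1 was not called (-0.73, adjusted p = 0.0887) and 4 of the 7 were higher and 1 lower. Calls were common in this comparison, with 19.7% of all genes higher and 31.5% lower as deposited. After centring, 5833 of all 18336 genes were higher and 3756 lower. The remaining partner chains of type IX collagen and the gene col2a1a are not analysed here.

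Of the 20 collagen processing genes found, 2 were called in HSCs, 1 in HEPs and 11 in ECs, where 8.21%, 7.4% and 51.2% of all genes were called. With the values as deposited these shares were thus near those of all genes. In HSCs pcolcea, an enhancer of procollagen cleavage, was higher (2.21, adjusted p = 0.0339) and ppib, a prolyl isomerase of the endoplasmic reticulum, was lower (-1.09, adjusted p = 0.0398). In HEPs loxl2a, a lysyl oxidase that crosslinks collagen, was lower (-5.11, adjusted p = 6.8e-05). In the EC comparison 3 were higher and 8 lower, among them loxl1 (-7.40), pcolceb (-6.33) and the prolyl hydroxylase gene p4ha1a (-3.57) lower and p4hb (2.35), the shared subunit of that enzyme, higher. With libraries centred on their median 8 were higher and 7 lower, where 5833 and 3756 of all 18336 genes were. The nearness to all genes in ECs therefore depended on the scaling.

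Of the 5 collagen receptor genes found, the receptor tyrosine kinase ddr1 (1.98, adjusted p = 0.0116) and the integrin chain itga1 (1.51, adjusted p = 0.0157) rose in HSCs. The integrin chain itga10 was lower in HEPs (-1.46, adjusted p = 0.042) and higher in the EC comparison (2.37), where itga1 (-6.61) and ddr2l (-4.82) were lower. Of all genes, 8.21% were called in HSCs, 7.4% in HEPs and 51.2% in ECs.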

How the data were processed

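RNA-seq of 27 libraries was analysed, in 9 groups of 3 taken from the sample labels. Per the submitters' processing notes, the authors used FastQC 0.11.8, cutadapt 1.18, STAR 2.6 with GRCz11, SAMtools 1.9 and DESeq2, and deposited rlog values on the log2 scale, from -2.62 to 22.57. Counting tool, annotation release, rlog settings and gene filter are not given in the sources used here. No other column was left out.

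Symbols came first from the study's own pairing of identifiers (1072 found in the table) and then from the reference's gene names (17233 of 18336 identifiers). The members and lists were chosen with earlier results of these data known. Named genes were the 4 members, up to 10 listed genes per list past the threshold in a TAA comparison, by size of change, and the 5 genes most like each member by Pearson correlation. In each list, marker lists included, only the genes found in the table were used.

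Groups were compared in limma 3.58.1 (R 4.3.3, eBayes with a variance trend) with Benjamini-Hochberg adjustment over all genes at 0.05. The fits held the 18 reporter-positive libraries for TAA, the 9 positive controls for cell types, and the 18 controls for positive against negative cells. Same-numbered positive and negative libraries deviated together in the EC line (correlations of 0.134 to 0.186) and the HEP line (0.114 to 0.157), and the replicate block changed no member call there. Alternatives were the compared libraries alone, no variance trend, a robust prior, a filter on genes with a mean of at least 1, median centring, quantile normalization, the replicate block and leaving out each replicate, and, chosen after seeing the data, a fit with no EC TAA library, a fit of all 27 libraries and 2 mean TAA changes. The fit was tested on simulated data. Figures used matplotlib 3.10.9. No sequence is printed.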

Additional observations from a re-analysis of the deposited data

Results flagged for a closer look

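For col12a1b the TAA changes of the groups labelled HSC, HEP and EC differed in the test of the difference itself. The change in HSCs minus that in HEPs was 6.81 (limma adjusted p = 2.1e-05), in ECs minus HEPs 3.45 (adjusted p = 0.000818) and in ECs minus HSCs -3.36 (adjusted p = 0.000948). Of all genes, 2.86%, 40.9% and 43.1% were called in these comparisons. Both EC differences rest on the libraries labelled EC TAA, which went against their label, so they cannot be read as a response of endothelial cells. All 3 HSC TAA libraries were above all HSC controls, and all 3 HEP TAA libraries were below all HEP controls, as for 12.7% and 17.9% of all genes in these directions.

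For col9a2 the change in HSCs minus that in HEPs was 1.98 (limma adjusted p = 0.0045). The change in ECs minus that in HSCs was -1.24 (adjusted p = 0.0109). Of all genes, 2.86% and 43.1% were called in these comparisons. With libraries centred on their median the ECs minus HSCs difference was -0.59 and not called (adjusted p = 0.271). It also rests on the libraries labelled EC TAA, which went against their label. Both EC groups had col9a2 near the bottom of the scale. All 3 HSC TAA libraries were above all HSC controls, as for 12.7% of all genes in this direction, and in HEPs control replicate 1 was the 1 library above 0.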

How the results depend on the processing

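All called TAA changes of the members kept their direction and, except as follows, their side of the threshold under the alternatives run. The fall of col12a1b in HEPs (-3.14) was not past it in a fit of all 27 libraries (limma adjusted p = 0.0552), an alternative added after seeing the data. The mean change of col27a1b over HEPs and HSCs (1.29) was not called without HSC TAA replicate 3 (1.21, adjusted p = 0.0511). With a filter on genes with a mean of at least 1, col9a2 could not be tested. The col9a2 change in ECs minus that in HSCs (-1.24) was not called with libraries centred on their median (-0.59, adjusted p = 0.271). Genes called in HSCs numbered 1505, and 630 when only the libraries compared were fitted. The fit of all 27 libraries called 749 genes in HSCs and 452 in HEPs. Leaving out a replicate gave 8402 to 8705 genes in ECs (9387 in full), 770 to 1146 in HEPs (1357; 770, 850 and 782 without TAA replicates 1, 2 and 3) and 733 to 1868 in HSCs (766, 733 and 736 without TAA replicates 1, 2 and 3), and for col27a1b in HSCs 1.0 to 1.77. Signs turned for differences that were not called. With libraries centred on their median, the HSC minus HEP control difference was 0.0014 for col9a2 and 0.045 for col27a1b. With quantile normalization it was 0.041 for col27a1b, and the positive minus negative difference was 0.29 for col27a1b in the HEP line and -0.068 for col9a2 in the HSC line. Leaving out a replicate gave -0.31 to 0.45 for the col27a1b change in HSCs minus HEPs, -0.61 to 0.15 and -0.37 to 0.27 for the control HSC minus HEP difference of col27a1b and col9a2, -0.93 to 1.39 for col12a1b in the HEP line, and -1.56 to 0.20, -0.18 to 0.66 and -0.031 to 0.29 for col12a1b, col27a1b and col9a2 in the HSC line. The cause was not tested. Of the 5 most alike genes, Spearman's coefficient kept 2 for col12a1b, 1 for col9a2 and 3 for col27a1b, and the reporter-positive libraries kept 2 for col2a1b and 1 for each other member.

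Same-numbered TAA and control libraries did not deviate together (correlations of -0.043 to 0.066), and they were not treated as pairs. What the replicate number stands for is not given in the sources used here. Fitting the replicate number as a block, 9195 genes were called in ECs, 1199 in HEPs and 1281 in HSCs, and the block changed 1 member call, col2a1b in EC against HEP controls (-1.41, adjusted p = 0.0416).

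Values near the bottom of the scale, as for col9a2, cannot show a fall, and depth per library is unknown.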
